A study of Mus musculus with 4 samples.

Results

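The 46 genes described here are the protein-coding genes whose GENCODE vM21 symbol starts with Nduf followed by a, b, c, s or v, of 52022 genes with a transcript in the deposited files. They are 36 nuclear-encoded subunits of mitochondrial complex I, 8 assembly factors (Ndufaf1 to Ndufaf8) and 2 genes that carry the name without being counted here as complex I subunits, Ndufa4 and Ndufa4l2. Of the subunits, 7 are core subunits that carry the cofactors of the reaction or line the quinone site, 9 are supernumerary subunits of the peripheral arm, 19 are supernumerary subunits of the membrane arm, and Ndufab1, an acyl carrier protein, is in both arms.

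Messenger RNA of brown adipose tissue was sequenced from male mice fed ad libitum on a diet of 60% fat for 12 weeks. There were 2 libraries of ATF4 BAT KO mice, in which thermogenic adipocytes lack ATF4 (called KO 1 and KO 2 here), and 2 of WT mice (WT 1 and WT 2), all on this diet. The sources used here do not give the means of deletion, the age of the mice or whether each library is a separate animal. The p-values therefore speak of spread among 4 libraries, which may be technical. The library names begin with S1 (KO 1 and WT 2) or S2 (KO 2 and WT 1), and the sources do not say what this prefix means.

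Complex I oxidises NADH, passes the electrons through a flavin and a chain of iron-sulfur clusters to ubiquinone, and pumps protons across the inner mitochondrial membrane. Its peripheral arm holds the NADH and quinone sites and its membrane arm holds the proton pumps, whose cores are encoded by mitochondrial DNA. Assembly factors bind intermediates of the enzyme, modify subunits or deliver cofactors, and most are absent from the finished complex. Brown adipocytes are rich in mitochondria and use the respiratory chain to feed heat production through UCP1. ATF4 is a transcription factor of the integrated stress response, which is known to answer mitochondrial dysfunction.

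The estimated counts totalled 25985367 in KO 1, 30405113 in KO 2, 32714456 in WT 1 and 34813870 in WT 2. Atf4 itself had 25.0 and 24.5 CPM (counts scaled to a total of 1e+06) in KO 1 and KO 2, against 29.2 CPM in WT 1 and 107 CPM in WT 2, so its level did not set WT 1 clearly apart from the KO libraries. The brown adipocyte markers were present in every library, with a summed level of 8234 to 10080 CPM in KO and 7908 to 9441 CPM in WT. Ucp1 alone had 5563 to 7024 CPM over the libraries. Of the 8 markers, 1 was higher and 2 were lower in KO without overlap, and 3 were higher and 1 was lower in S1. All 18 skeletal muscle markers were higher in both KO libraries than in both WT libraries, with summed levels of 3311 and 2929 CPM in KO 1 and KO 2 against 9.08 and 23.2 CPM in WT 1 and WT 2, and Myh4 was at 0 in WT. Of 5 white adipocyte markers 4 were lower in KO without overlap, with sums of 86.8 and 157 CPM in KO 1 and KO 2 against 378 and 308 CPM in WT 1 and WT 2. Macrophage markers summed to 37.4 and 82.6 CPM in KO 1 and KO 2 and to 96.9 and 112 CPM in WT 1 and WT 2. All 5 fibroblast markers were lower in KO, with sums of 380 and 561 CPM in KO 1 and KO 2 against 606 and 1020 CPM in WT 1 and WT 2. All 4 endothelial markers were higher in S1 than in S2, with sums of 1077 and 901 CPM in KO 1 and WT 2 against 632 and 558 CPM in KO 2 and WT 1. Of 5 mural markers 4 were higher in S1 without overlap, with sums of 609 and 655 CPM in KO 1 and WT 2 against 604 and 565 CPM in KO 2 and WT 1. Of all tested genes, 26.3% had no overlap between KO and WT and 53.2% had none between S1 and S2. Mitochondrially encoded genes took 38.9% of the gene counts in KO 1, 33.0% in KO 2, 34.1% in WT 1 and 33.9% in WT 2. The part of these differences in the results below was not tested, and in bulk tissue fewer cells of a type and less RNA per cell cannot be told apart.

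Complex I subunit transcripts were abundant in every library and assembly factor transcripts were far lower. On the TPM scale, which corrects for transcript length and sums to 1e+06 over all transcripts, the mean level of the 36 subunits ran between 171 and 1163 with a median of 453. The 8 assembly factors ran between 11.9 and 53.2 TPM with a median of 27.1. With all annotated transcripts of a gene summed, the classes did not overlap in any library. The lowest subunit value was 145 TPM and the highest assembly factor value was 58.6 TPM. These sums include transcripts not annotated as coding. In KO 1, coding transcripts held 6.66% of the 440 TPM of Ndufs4, mostly Ndufs4-201 at 27.4 TPM. The coding transcript Ndufaf3-203 had 32.6 TPM in KO 1, so the separation did not hold for coding transcripts alone. The 36 subunits together summed to 20300 TPM in KO 1, 16961 TPM in KO 2, 17896 TPM in WT 1 and 18552 TPM in WT 2. The 8 assembly factors summed to 231 TPM in KO 1, 217 TPM in KO 2, 233 TPM in WT 1 and 234 TPM in WT 2. The ratio of the sums was therefore 87.7 in KO 1, 78.3 in KO 2, 76.8 in WT 1 and 79.4 in WT 2, with KO 1 above the other libraries.

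**Figure D1:**
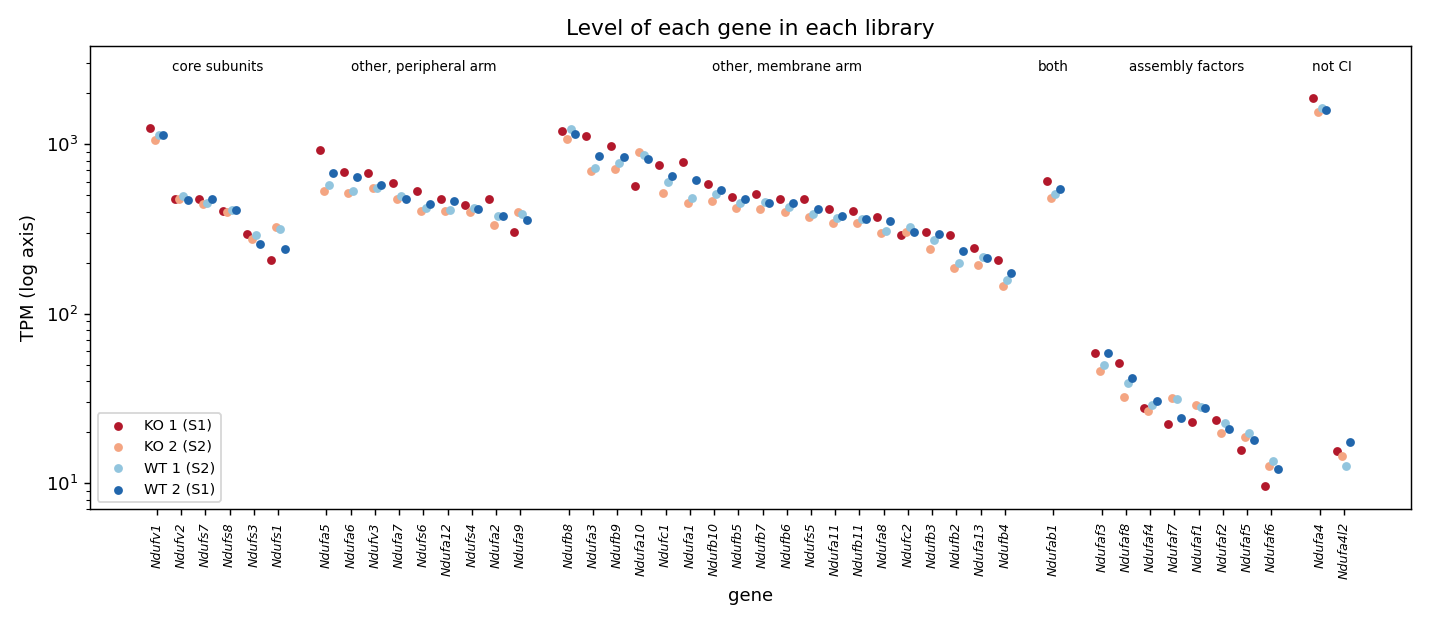
Level of 45 of the genes in each library, by class, in TPM summed over all annotated transcripts, on a log axis. The pair marked "not CI" are not complex I subunits. The subunits shown lie at or above 145 TPM and all assembly factors at or below 58.6 TPM. The KO 1 points sit above the other libraries for most supernumerary subunits. They sit below them for Ndufs1, Ndufa10, Ndufa9, Ndufc2, Ndufaf1, Ndufaf5, Ndufaf6 and Ndufaf7.

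With all annotated transcripts summed, the most abundant subunits were Ndufb8, a membrane arm subunit, at a mean of 1163 TPM, and Ndufv1 at 1143 TPM. Ndufv1 holds the flavin and the NADH site. The ranges of these subunits over the 4 libraries overlapped with each other. Coding transcripts held 40.4 to 44.6% of the TPM of Ndufb8 and 40.6 to 61.0% of that of Ndufv1. Ndufb9, at a mean of 825 TPM with 99.9% or more in coding transcripts, was above both on coding transcripts alone. The order given here is of all transcripts. The least abundant subunits were Ndufb4 at 171 TPM, Ndufa13 at 218 TPM and Ndufb2 at 228 TPM. Other core subunits lay in the middle and lower part of this range: Ndufv2 at 480 TPM, Ndufs7, which carries the last iron-sulfur cluster before ubiquinone, at 460 TPM, Ndufs8 at 404 TPM, Ndufs3 at 280 TPM and Ndufs1 at 272 TPM. Ndufs1, an iron-sulfur protein, is the longest of the 46 genes by mean transcript length weighted by use. Ndufa12 was at 437 TPM and Ndufab1 at 534 TPM, with 12.4 to 13.7% of the TPM of Ndufab1 in coding transcripts. Of the 45 neighbouring pairs in the order of mean levels, 42 had overlapping ranges over the libraries. The 3 that did not, with all transcripts summed, were Ndufa4 above Ndufb8, Ndufb4 above Ndufaf3, and Ndufaf8 above Ndufaf4.

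Among the assembly factors, Ndufaf3, which acts with Ndufaf4 in building the quinone module, had the highest mean at 53.2 TPM. Ndufaf8, a partner of Ndufaf5, followed at 41.1 TPM and Ndufaf4 at 28.4 TPM, with all annotated transcripts summed. Coding transcripts held 16.5 to 24.3% of the TPM of Ndufaf8 and 28.8 to 43.4% of that of Ndufaf4. In KO 1 the coding Ndufaf8-201 had 10.5 TPM, against 9.99 TPM for Ndufaf4-203 and 2.10 TPM for Ndufaf4-201. Ndufaf8 was thus not above Ndufaf4 on coding transcripts alone. Ndufaf7, a methyltransferase, was at 27.3 TPM, and Ndufaf1, a member of the assembly complex of the membrane arm, at 26.9 TPM. Ndufaf2, the paralog that Ndufa12 replaces late in assembly, was at 21.7 TPM, Ndufaf5, which hydroxylates Ndufs7, at 18.04 TPM, and Ndufaf6 at 11.9 TPM. Ndufaf2 was thus far below its subunit paralog in every library, with 23.5 TPM against 478 TPM in KO 1 and 21.0 TPM against 460 TPM in WT 2.

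Ndufa4, which was named as a complex I subunit and is assigned to cytochrome c oxidase (complex IV), had the highest level of the 46 genes, with 1862 and 1542 TPM in KO 1 and KO 2 against 1630 and 1599 TPM in WT 1 and WT 2. Its paralog Ndufa4l2, known as a hypoxia-induced gene, had 15.4 and 14.4 TPM in KO 1 and KO 2 against 12.6 and 17.6 TPM in WT 1 and WT 2. The groups overlapped for both genes.

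The upstream regions of these genes were searched for short motifs of factors that textbooks name for nuclear genes of the respiratory chain. RefSeq windows of 300 bases (250 before the gene start and 50 after it, build GRCm38.p6) were at hand for 40 of the 46 genes, 32 of them subunits and 7 assembly factors, and were searched on both strands. TGCGCA, a short NRF1 motif, reads the same on both strands. It was in the windows of 11 of the 40 (27.5%), against 8.76% of the other genes. AAGATGGCG, the core of a YY1 site, was in 6 (15%) against 1.62% of the other genes. The full palindrome of NRF1 was in 3 (7.5%) against 1.06%, and these were Ndufa11, Ndufaf4 and Ndufaf5. CCGGAAG of ETS factors such as GABPA was in 6 (15%) against 9.92%, AAGGTCA of estrogen-related receptors in 3 (7.5%) against 5.38%, and CCAAT of NF-Y in 14 (35%) against 41.1%. A match is a run of letters and not a measured site.

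A set of 4 windows is shown because between them they hold all 6 motifs, a choice made after the matches were known. They are Ndufs6 at chr13:73328433-73328732 on the minus strand, Ndufb4 at chr16:37654319-37654618 on the minus strand, Ndufaf4 at chr4:24897833-24898132 on the plus strand and Ndufaf8 at chr11:120098684-120098983 on the plus strand. Each is written from 5′ to 3′ on the strand of its gene, with motif matches of either strand in capitals. In Ndufaf4 the first run of capitals is TGCGCA overlapping the full NRF1 palindrome.
Ndufs6: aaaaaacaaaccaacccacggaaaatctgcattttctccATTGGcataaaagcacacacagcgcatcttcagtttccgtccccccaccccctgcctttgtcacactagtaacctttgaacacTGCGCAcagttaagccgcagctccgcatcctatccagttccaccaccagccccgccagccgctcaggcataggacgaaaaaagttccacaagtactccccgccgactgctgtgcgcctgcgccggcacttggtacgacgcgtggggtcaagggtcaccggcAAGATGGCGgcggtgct
Ndufb4: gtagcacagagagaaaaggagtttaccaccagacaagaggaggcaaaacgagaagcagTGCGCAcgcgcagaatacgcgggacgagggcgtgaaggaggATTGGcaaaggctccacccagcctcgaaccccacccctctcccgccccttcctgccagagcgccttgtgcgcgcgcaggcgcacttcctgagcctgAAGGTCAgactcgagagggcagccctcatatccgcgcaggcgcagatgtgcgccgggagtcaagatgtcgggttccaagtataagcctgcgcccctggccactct
Ndufaf4: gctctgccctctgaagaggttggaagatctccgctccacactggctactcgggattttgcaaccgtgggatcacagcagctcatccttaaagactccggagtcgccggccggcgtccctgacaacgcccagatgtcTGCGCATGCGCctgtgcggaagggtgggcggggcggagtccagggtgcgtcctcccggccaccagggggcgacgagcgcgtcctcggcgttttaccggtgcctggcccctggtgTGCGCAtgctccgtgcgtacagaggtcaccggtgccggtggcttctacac
Ndufaf8: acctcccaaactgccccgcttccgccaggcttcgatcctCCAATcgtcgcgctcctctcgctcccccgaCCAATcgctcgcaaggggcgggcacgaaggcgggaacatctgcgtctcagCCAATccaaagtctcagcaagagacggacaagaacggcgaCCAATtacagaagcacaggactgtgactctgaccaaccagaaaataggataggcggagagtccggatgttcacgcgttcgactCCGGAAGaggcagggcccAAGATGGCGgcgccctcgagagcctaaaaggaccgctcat

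None of the 46 genes was called between KO and WT. In edgeR's quasi-likelihood test with genotype as the sole term, 0 of 46 passed an adjusted p (Benjamini-Hochberg) of 0.05, against 122 of 15643 tested genes (0.78%), most of them higher in KO. In the fit that adds the prefix it was again 0 of 46, against 320 genes (2.05%). At an unadjusted p under 0.05 it was also 0 of 46 in both fits, against 4.02% of tested genes without the prefix and 8.88% with it. The lowest adjusted p among the members was 1.00 without the prefix and 0.888 with it. All 46 genes passed the filter on low counts, and the lowest count of a member in any library was 203.

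The KO and WT libraries overlapped for each of the 46 genes, whereas 26.3% of all tested genes had no overlap. The fitted log2 fold change of KO over WT was above 0 for 39 of the 46 genes and below 0 for 7, with a median of 0.10 against 0.00 over all tested genes. It was largest for Ndufa3 (0.32 ± 0.30, SE), Ndufa1 (0.31 ± 0.34) and Ndufb2 (0.28 ± 0.30), small subunits of the membrane arm. Ndufs6 (0.23 ± 0.24), Ndufa7 (0.23 ± 0.21), both of the peripheral arm, and Ndufs5 (0.21 ± 0.23) were named for their small p in this direction, not for size. At the other end stood Ndufs1 (−0.19 ± 0.40) and Ndufaf6 (−0.13 ± 0.21), while Ndufaf7 (−0.03 ± 0.24), Ndufaf5 (−0.03 ± 0.17) and Ndufaf4 (−0.02 ± 0.16) were near 0. These values were of the size of their errors or smaller, and the median SE over the 46 genes was 0.22. In counts simulated with a 1.5-fold change in 200 of 15643 genes, the test without the prefix recovered 9.5% of them. With a 2-fold change it recovered 65.5%. A change of the size seen here was therefore not detectable at this depth and number of libraries. The simulated spread was that of the fit with the prefix (common dispersion 0.0247) and held no prefix effect. The fit without the prefix had a common dispersion of 0.0546, so these shares are likely too high for it.

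By class, the median log2 fold change of KO over WT was 0.13 for the 36 subunits and −0.02 for the 8 assembly factors. It was 0.04 for the core subunits, 0.19 for the supernumerary subunits of the peripheral arm, where 9 of 9 were above 0, and 0.15 for those of the membrane arm, where 18 of 19 were. Of the assembly factors, 3 were above 0 and 5 below. The sign of the median over the 46 genes rested on KO 1: it was −0.08 without KO 1, 0.28 without KO 2, 0.14 without WT 1 and 0.08 without WT 2.

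The KO libraries did not move alike. KO 1 was the highest of the 4 libraries for 35 of the 46 genes, including 30 of 36 subunits and 18 of 19 supernumerary subunits of the membrane arm, against 34.3% of all tested genes. KO 2 was the lowest library for 26 of the 46, against 4009 of 15643 tested genes. Within prefix S1, KO 1 minus WT 2 had a median of 0.32 log2 CPM over the 46 genes, whereas within prefix S2, KO 2 minus WT 1 had a median of −0.10. For 38 of the 46 genes KO was above WT in S1 and below WT in S2, against 23.7% of all tested genes. This was so for 33 of 36 subunits and for 4 of 8 assembly factors. The medians for subunits were 0.33 in S1 and −0.10 in S2, and those for assembly factors were 0.02 in S1 and −0.12 in S2. The skeletal muscle markers were high in both KO libraries, and their part in the values of the 46 genes was not tested.

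**Figure D2:**
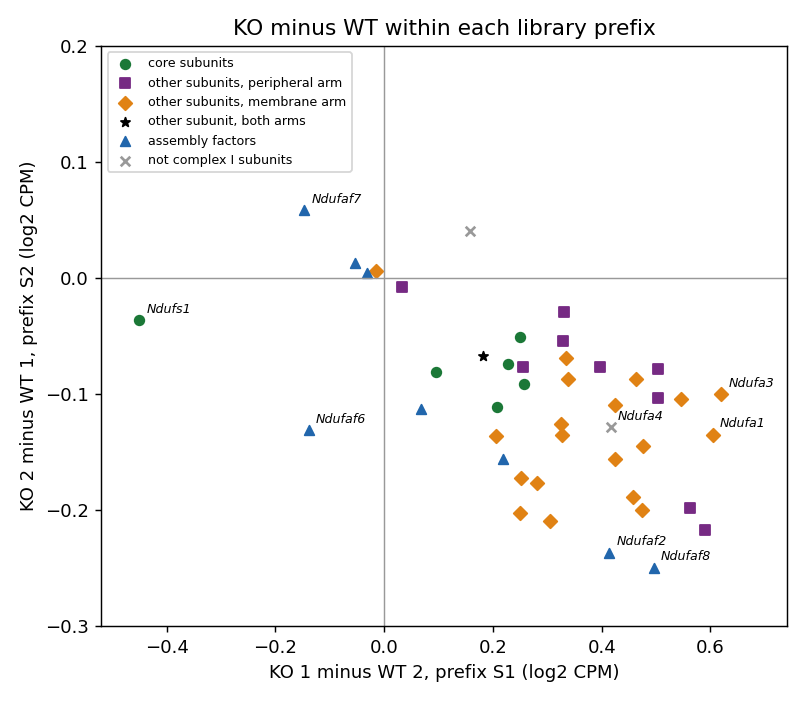
KO minus WT within prefix S1 (horizontal) and within prefix S2 (vertical), in log2 CPM, 1 point for each of 45 genes, with 1 library of each genotype in each prefix. Of these points, 38 lie at the lower right (KO above WT in S1, below WT in S2), and Ndufs1 stands at the far left.

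Ndufa3 (ENSMUSG00000035674, chromosome 7, 3617373 to 3620327, plus strand, GRCm38) had 215 and 121 CPM in KO 1 and KO 2, against 129 and 140 CPM in WT 1 and WT 2. Ndufa1 (ENSMUSG00000016427, chromosome X, 37187588 to 37191163, minus strand), a small membrane arm subunit, had 198.7 and 101 CPM in KO 1 and KO 2, against 110 and 131 CPM in WT 1 and WT 2. Ndufb2 (ENSMUSG00000002416, chromosome 6, 39592574 to 39603382, plus strand) had 117 and 65.4 CPM in KO 1 and KO 2, against 70.3 and 80.4 CPM in WT 1 and WT 2. All 3 genes share an order, with KO 1 far above, WT 2 next, and the S2 libraries lowest and close together.

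Ndufs1 (ENSMUSG00000025968, chromosome 1, 63143596 to 63176833, minus strand), the large iron-sulfur subunit of the NADH module, ran the other way, with 355 and 717 CPM in KO 1 and KO 2 against 736 and 485 CPM in WT 1 and WT 2. KO 1 was lowest, WT 2 next, and the S2 libraries were high and close together. Ndufv1 had 960 and 993 CPM in KO 1 and KO 2, against 1050 and 898 CPM in WT 1 and WT 2. Ndufs3 had 175 and 179 CPM in KO 1 and KO 2, against 193 and 152 CPM in WT 1 and WT 2. For these 3 core subunits S1 was below S2 without overlap. Other core subunits were highest in KO 1: Ndufs7 with 312 and 261 CPM in KO 1 and KO 2 against 270 and 263 CPM in WT 1 and WT 2, Ndufs8 with 295 and 260 CPM against 274 and 252 CPM, and Ndufv2 with 415 and 370 CPM against 394 and 347 CPM in the same order of libraries.

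The assembly factors split in the same ways. Ndufaf8 (chromosome 11, 120098928 to 120100705, plus strand) had 16.5 and 9.05 CPM in KO 1 and KO 2, against 10.8 and 11.7 CPM in WT 1 and WT 2. Ndufaf7 (chromosome 17, 78937136 to 78948052, plus strand) had 24.4 and 35.3 CPM in KO 1 and KO 2, against 33.9 and 27.1 CPM in WT 1 and WT 2. Ndufaf8 was thus highest and Ndufaf7 lowest in KO 1. Ndufaf2 (12.9 and 9.56 CPM in KO 1 and KO 2, 11.3 and 9.69 CPM in WT 1 and WT 2) and Ndufaf3 (27.8 and 20.0 CPM in KO, 22.3 and 23.9 CPM in WT) were also highest in KO 1. Ndufaf6 was lowest in KO 1, with 7.93 and 9.60 CPM in KO 1 and KO 2 against 10.5 and 8.74 CPM in WT 1 and WT 2, as was Ndufaf1, with 30.1 and 33.4 CPM against 33.3 and 30.8 CPM. Ndufaf4 (53.1 and 52.7 CPM in KO, 52.3 and 55.1 CPM in WT) had its libraries close together. Ndufaf5 had 17.5 and 18.4 CPM in KO 1 and KO 2 against 19.9 and 16.7 CPM in WT 1 and WT 2, with S1 below S2 without overlap.

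Between the prefixes no member was called either. In the edgeR fit of genotype plus prefix, 0 of 46 passed an adjusted p of 0.05 for S1 over S2, against 491 of 15643 tested genes (3.14%), 243 of them higher in S1. At an unadjusted p under 0.05 it was 7 of 46, 5 higher and 2 lower in S1, against 19.8% of all tested genes, 9.65% higher and 10.2% lower. S1 and S2 did not overlap for 25 of the 46 genes, 15 higher and 10 lower in S1, against 53.2% of all tested genes, 25.9% higher and 27.3% lower. This share was near the background. A gene whose prefixes do not overlap must overlap between the genotypes.

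Ndufs1 had the lowest adjusted p (log2 fold change of S1 over S2 −0.81 ± 0.21, SE, adjusted p = 0.0671 in edgeR). It passed 0.05 in DESeq2 (adjusted p = 0.00249), in limma-voom (adjusted p = 0.0492) and in edgeR without a filter on low counts (adjusted p = 0.00254), and over all alternatives with a test its adjusted p ran between 0.00249 and 0.277. Ndufa1 came next among the subunits (0.61 ± 0.19, adjusted p = 0.118), then Ndufb2 (0.52 ± 0.18, adjusted p = 0.151), both in edgeR. Ndufaf7 had −0.43 ± 0.15 (adjusted p = 0.156) and Ndufaf8 0.49 ± 0.20 (adjusted p = 0.213) in the same fit. Ndufa3 and Ndufa5, a subunit of the peripheral arm, both had 0.48. On the lower side Ndufaf6 had −0.27 ± 0.17 and Ndufs3 −0.19 ± 0.17. The fit leaves 1 residual degree of freedom, so these errors rest largely on variation pooled across genes.

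The median log2 fold change of S1 over S2 was 0.14 over the 46 genes and 0.01 over all tested genes. It was 0.18 for subunits and −0.04 for assembly factors, −0.14 for core subunits, 0.25 for the supernumerary subunits of the peripheral arm and 0.21 for those of the membrane arm. Within WT the sign was the other one: S1 minus S2 had a median of 0.41 log2 CPM within KO (KO 1 minus KO 2) and −0.08 within WT (WT 2 minus WT 1). The pair of contrasts share KO 1, so a shift of that library enters both.

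The direction of a member went with the length of its transcripts. The median length, averaged over a gene's transcripts by their use, was 688 bases for subunits and 1053 bases for assembly factors, against 2275 bases over all tested genes. Across the 46 genes, log2 length and the log2 deviation of KO 1 from the mean of the 4 libraries had a Pearson r of −0.83, with 0.80 for KO 2, 0.71 for WT 1 and −0.17 for WT 2. These deviations come from the same 4 libraries and sum to 0 for each gene, so they are not independent. Among subunits alone (n = 36) r for KO 1 was −0.84, and among assembly factors alone (n = 8) it was −0.76. The relation was therefore present in both classes.

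Other genes also lay lower in KO 1 the longer they were, over a narrower range. Among genes of up to 600 bases, the median deviation of KO 1 was 0.42 log2 CPM for the 13 members and 0.28 for 486 other genes. At 600 to 1000 bases it was 0.23 for 23 members and 0.17 for 1466 other genes. At 1000 to 2000 bases it was −0.08 for 8 members and 0.05 for 4708 other genes, and the 2 members over 2000 bases, Ndufs1 and Ndufaf4, had −0.63 and −0.0054 against a median of −0.04 for 6014 other genes of 2000 to 4000 bases. The correlation over all tested genes was weak, with r = −0.13 between log2 length and the deviation of KO 1.

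**Figure D3:**
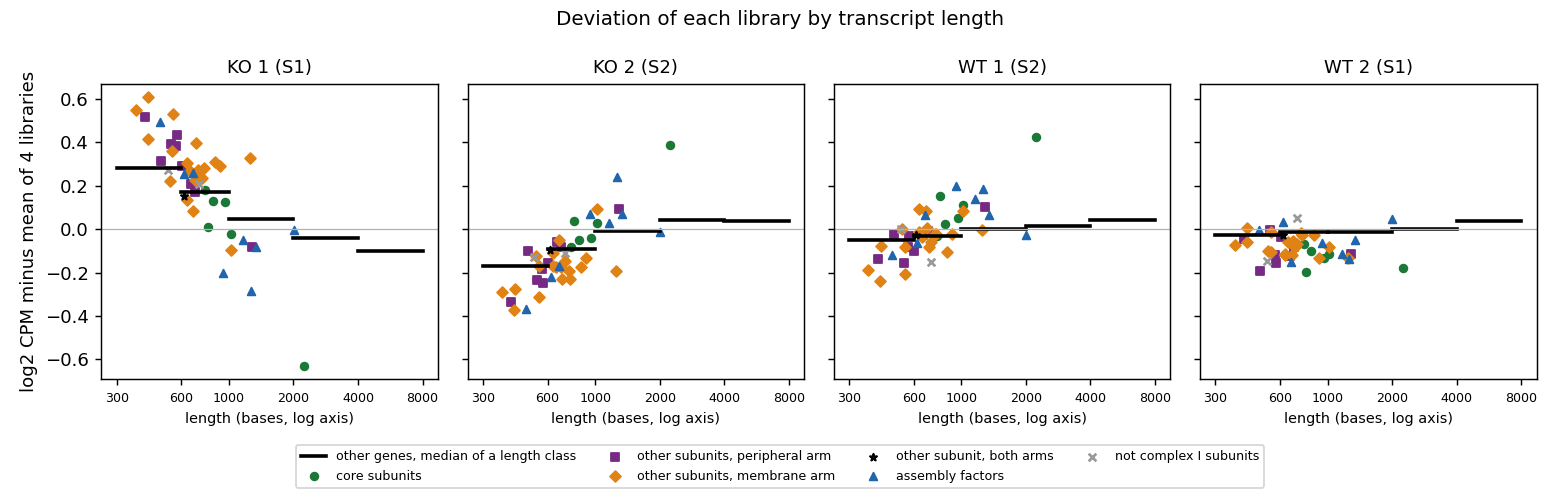
Deviation of each library from the mean of the 4 libraries (log2 CPM) against transcript length (log axis), 1 point for each of 45 genes, with black bars at the median of the other tested genes in 5 length classes (the outer bars run to the first and last tick). Longer genes lie lower in KO 1 (r = −0.83 over all 46 genes) and higher in KO 2 (r = 0.80) and WT 1 (r = 0.71).

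An offset that removes each library's smooth trend over length, chosen after seeing the data, brought the median of the 46 genes to 0.02 for KO over WT and to 0.01 for S1 over S2. The median for assembly factors became −0.04 for KO over WT and that for subunits 0.04. For S1 over S2 the core subunits and the assembly factors lay further from 0 with the offset, at −0.23, with 0 of 7 core subunits above 0, and −0.12. The subunits as a whole were at 0.03. With the offset 0 of 46 were called in either contrast, against 0.703% of tested genes for KO over WT and 0.467% for S1 over S2. Ndufs1 kept −0.78 ± 0.16 (adjusted p = 0.0964 in edgeR) for S1 over S2 and Ndufaf7 −0.48 (adjusted p = 0.142 in edgeR), while Ndufa1 had 0.38 (adjusted p = 0.179 in edgeR). A correlation with length stayed across the 46 genes after the offset, with r = −0.63 for KO over WT and −0.67 for S1 over S2.

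The transcripts within each gene differed between libraries as well. kallisto divides reads among annotated transcripts. In KO 1 some core subunits gave a larger share of TPM to short annotated transcripts that lie in the 3′ part of the longest coding one. For Ndufs1, the transcript Ndufs1-210 (826 bases, annotated as retained intron) held 38.9% and 1.40% of the gene's TPM in KO 1 and KO 2, against 0.887% and 11.2% in WT 1 and WT 2. Ndufs1-201, the full coding transcript, held 35.6% and 54.8% in KO 1 and KO 2, against 58.8% and 58.5% in WT 1 and WT 2. Of the bases of Ndufs1-210, 63.8% are in Ndufs1-201, between bases 2127 and 2653 of its 2661, and the rest are not part of it. The share of the 3′ transcript was highest in KO 1, next in WT 2, and low in both S2 libraries.

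For Ndufs3, Ndufs3-204, also in the 3′ part, held 38.2% and 19.2% in KO 1 and KO 2, against 20.0% and 23.9% in WT 1 and WT 2. For Ndufv1, Ndufv1-209 held 57.5% and 36.5% in KO 1 and KO 2, against 39.7% and 44.9% in WT 1 and WT 2. Among the assembly factors, Ndufaf7-205 held 50.2% and 23.2% of Ndufaf7 in KO 1 and KO 2, against 32.6% and 30.4% in WT 1 and WT 2. KO 1 was highest for each of these transcripts.

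**Figure D4:**
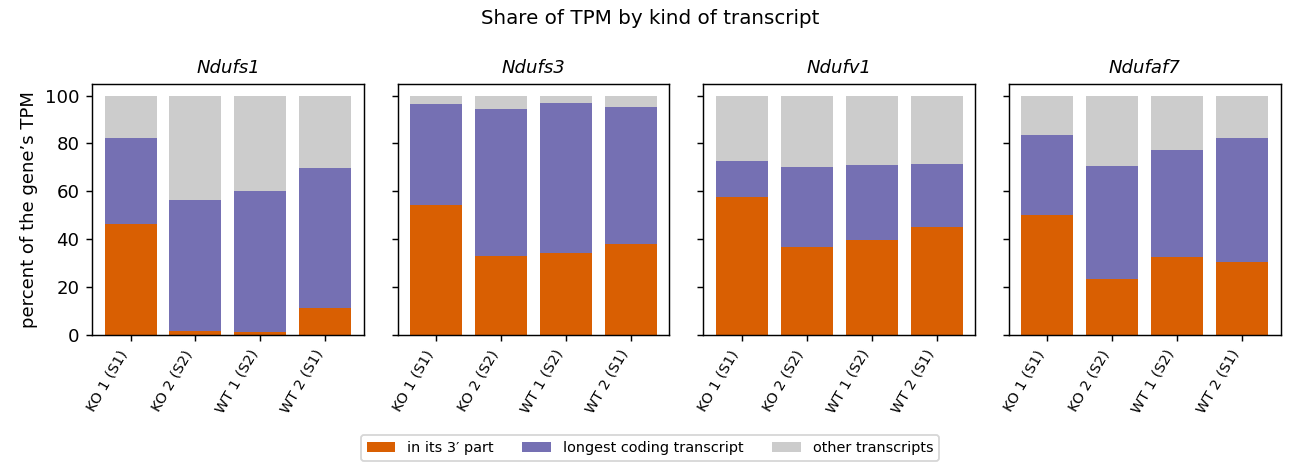
Share of each gene's TPM in short transcripts lying in the 3′ part of the longest coding transcript (mean position at 65% of its length or beyond), in that coding transcript and in all others, for 3 core subunits and Ndufaf7. The 3′ share is highest in KO 1 in every panel, 57.5% for Ndufv1 in KO 1 against 36.5% in KO 2.

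A count over all members took transcripts with most of their bases in the longest coding one, without those of small TPM share in every library. Of these, 12 transcripts of 8 genes lay in the 3′ part (mean position at 65% of the longest coding transcript or beyond). Among them 10 took their highest share in KO 1. Of 14 such transcripts of 9 genes in the 5′ part (mean position at 35% or before), 6 took their highest and 6 their lowest share in KO 1. The rule on bases left out Ndufc1-202 and Ndufc1-203 at the 3′ end, both highest in KO 1. At the 5′ end it left out Ndufa7-208, highest in KO 1, and Ndufab1-205 and Ndufs1-212, lowest in KO 1. These limits were set after the values were seen. Of 17 genes with 10 to 99% of their counts in transcripts of 1000 bases or more, that share was lowest in KO 1 for 12. Such tallies were made for members only, so the shares over all genes are not known. Transcripts of the same gene divide its TPM, so their shares are not independent. Whether RNA quality or library preparation differed between the libraries was not tested.

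CPM and TPM gave different pictures for Ndufa10. This gene, a membrane arm subunit related to nucleoside kinases, had 628 and 715 CPM in KO 1 and KO 2 against 711 and 635 CPM in WT 1 and WT 2, but 565 and 897 TPM in KO 1 and KO 2 against 862 and 823 TPM in WT 1 and WT 2. In KO 1 its short transcript Ndufa10-204 held 0.0349% of TPM, against 14.9% in KO 2, 12.9% in WT 1 and 9.997% in WT 2. The shortest, Ndufa10-205 of 248 bases, had 184 TPM in KO 1, against 318 TPM in KO 2, 316 TPM in WT 1 and 316 TPM in WT 2. The longer Ndufa10-207 held 52.2% in KO 1, against 40.5%, 40.2% and 40.1% in those libraries. The share of Ndufa10 counts in transcripts of 1000 bases or more was highest in KO 1, at 97.85%, against 87.5% in KO 2, 88.9% in WT 1 and 90.6% in WT 2. For Ndufv3, whose gene makes a long and a short protein form, the short form's transcript Ndufv3-202 held 87.6% and 80.8% in KO 1 and KO 2, against 80.8% and 82.6% in WT 1 and WT 2. The long form's Ndufv3-201 held 11.3% and 17.5% in KO 1 and KO 2, against 17.7% and 16.2% in WT 1 and WT 2. The short form led in every library. For 10 of the 46 genes the most abundant transcript is not annotated as coding.

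Some members share sequence with copies elsewhere in the genome, and their levels are uncertain for this reason. Ndufb4 shares 19.1% of its words of 31 bases with the pseudogene Ndufb4c, which was assigned 415 and 412 TPM in KO 1 and KO 2 and 452 and 438 TPM in WT 1 and WT 2, more than Ndufb4 itself. Summed with the copy, Ndufb4 came to 624 and 557 TPM in KO 1 and KO 2, against 611 and 612 TPM in WT 1 and WT 2, and its log2 ratio of mean CPM, KO over WT, was 0.08 after the sum and 0.14 before it. Ndufab1 summed with Gm4459 and Ndufab1-ps came to 951 and 866 TPM in KO 1 and KO 2, against 922 and 922 TPM in WT 1 and WT 2. In both sums KO 1 lay above and KO 2 below the WT libraries. Ndufs5 shares 26.5% of its words with BC002163, which was listed at 0 in all libraries except KO 2, at 26.3 TPM.

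Genes that build complex I outside the name rule were not called between genotypes either. Of 10 tested (Acad9, Ecsit, Tmem126b, Timmdc1, Nubpl, Foxred1, Tmem186, Dmac1, Dmac2 and Tmem70; Coa1, also listed, was not tested), 0 were called for KO over WT, with a median log2 fold change of 0.03, and 0 for S1 over S2, with a median of −0.01. The extremes were Dmac2, a distal membrane arm assembly gene, at 0.31 (60.1 and 39.5 CPM in KO 1 and KO 2, 33.3 and 47.0 CPM in WT 1 and WT 2), and Acad9, an acyl-CoA dehydrogenase relative that assembles the membrane arm, at −0.14 (44.4 and 68.8 CPM in KO, 68.8 and 56.2 CPM in WT). Both had overlapping groups. Of the 10 genes, 2 (Ecsit and Tmem186) were higher and 1 (Tmem70) was lower in KO without overlap. Of all tested genes, 26.3% had no overlap.

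The 7 mitochondrially encoded subunits, which form the core of the membrane arm, were also not called. Their summed level was 127399 TPM in KO 1, 141204 TPM in KO 2, 133013 TPM in WT 1 and 126409 TPM in WT 2, several times that of the nuclear subunits. Their log2 fold changes of KO over WT were all above 0 with a median of 0.12. The largest was mt-Nd3, with 2326 and 2314 CPM in KO 1 and KO 2 against 1495 and 1371 CPM in WT 1 and WT 2 (log2 fold change 0.70, adjusted p = 1.00 in edgeR, 0.266 in the fit with the prefix). Its groups did not overlap. In CPM all 7 were lowest in WT 2 and 5 were highest in KO 1.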

How the data were processed

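Messenger RNA of 4 brown adipose tissue libraries (2 KO, 2 WT) was made into libraries with a stranded TruSeq kit after TRIzol and RNeasy extraction, per the labels' protocols. The authors deposited, per the file headers, estimated counts, TPM, lengths and effective lengths for 141450 transcripts, made with kallisto 0.45.0 and mm10 per the submitters' processing notes. The transcript set and strand setting were not stated in any source used here. For 87.9 to 89.0% of non-zero values the deposited estimated counts were not exactly whole (tolerance 0), since kallisto splits reads among transcripts. TPM values, as deposited, were added up over each gene's transcripts.

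By Ensembl identifier 138191 transcripts (97.7%) were matched to GENCODE vM21 (GRCm38), and the rest, 0.992 to 1.04% of counts, were left out. Estimated counts were summed per gene, rounded and tested with edgeR 4.0.16 in R 4.3.3 (quasi-likelihood, TMM, filterByExpr with a minimum count of 10 and total of 15). The fits took all 15643 genes passing the filter, with Benjamini-Hochberg adjustment over them and a threshold of 0.05. Log2 CPM used a prior count of 2. SEs come from the fold change and its F statistic. Both tests were checked on simulated counts drawn with the dispersion of the fit with the prefix. Length is the mean over a gene's transcripts, weighted by use.

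Members named in the text are core subunits, the assembly factors, a few genes of known role, the highest and lowest subunits and up to 5 members a direction with the smallest p in each contrast. Ndufa10 and other members named for their transcripts or copies were chosen after their values were seen. A member is counted but its values are not reported here. The members and lists were chosen with earlier results of these data known. Alternatives were DESeq2 size factors, the DESeq2 1.42.0 test, limma 3.58.1 on log2(TPM + 1) and with voom, other filters, coding transcripts alone, leaving out mitochondrial or muscle genes, blocks, leaving out each library, a threshold of 0.1 and a length offset.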

Additional observations from a re-analysis of the deposited data

How the results depend on the processing

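For KO over WT, no alternative called any of the 46 genes, while the number of called genes of all genes was 122 as reported, 457 without a filter, 218 with the DESeq2 test, 320 with the prefix as a block, 215 with that block and the length offset, and 78 to 205 when 1 library was left out. The replicate numbers do not pair the libraries (their deviations had a correlation of −0.38 across genes, and the opposite pairing is that of the prefixes). With the replicate block 164 genes and 0 members were called, and the members' median was 0.097. With 1 library left out, log2 fold changes of KO over WT ran from −0.16 (without KO 1) to 0.68 for Ndufa3, −0.0845 (without KO 1) to 0.48 for Ndufs6, −0.20 (without KO 1) to 0.64 for Ndufb2 and −0.0771 (without KO 1) to 0.45 for Ndufs5. They ran from −0.28 to 0.005 (without WT 1) for Ndufaf6, −0.78 to 0.23 (without KO 1; 0.15 without WT 1) for Ndufs1, −0.15 to 0.11 (without WT 1; 0.0101 without KO 1) for Ndufaf5, −0.0582 to 0.0174 (without WT 2) for Ndufaf4, and −0.32 to 0.21 (without KO 1; 0.14 without WT 1) for Ndufaf7. With coding transcripts alone Ndufaf5 had 0.0058. None of these was called.

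For S1 over S2, 491 genes became 1446 without a filter, 998 at a threshold of 0.1, 73 with the length offset, 2 with coding transcripts alone and 1 with the prefix as the sole term. Members called became 2 without a filter (Ndufa1 and Ndufs1), and 1 each, Ndufs1, with DESeq2, limma-voom and the threshold of 0.1. The members' median was −0.084 without KO 1, −0.080 without KO 2, and 0.41 without WT 1 or without WT 2. Leaving out a library leaves this contrast no residual degree of freedom, so no calls were made there. The cause of these moves was not tested. Of 288 values of named members with a test under the alternatives, 270 kept their direction and their side of the threshold, 13 reversed and 5 passed the threshold where the reported value did not. Another 36 values, of S1 over S2 with a library left out, have no test, and all 36 kept their sign, while 28 of them moved by more than the SD between libraries of a prefix. With 2 libraries a group, changes under 2-fold are seldom detectable.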

Other observations

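A few genes match the name rule without being annotated as coding. Ndufb1-ps, annotated as a long non-coding RNA from a bidirectional promoter, had 364 and 266 TPM in KO 1 and KO 2 against 290 and 288 TPM in WT 1 and WT 2, a level within that of the subunits and again highest in KO 1. Ndufab1-ps, a processed pseudogene, had 25.3 and 33.2 TPM in KO 1 and KO 2 against 40.6 and 26.8 TPM in WT 1 and WT 2. Ndufs6b was listed at 0 in every library, and Ndufa11b at 0 in both KO libraries against 0.137 and 0.126 TPM in WT 1 and WT 2. Ndufaf2 shares 65.1% of its words of 31 bases with other genes, mostly with B230220B15Rik, which was assigned 2.21 and 1.22 TPM in KO 1 and KO 2 against 1.00 and 1.69 TPM in WT 1 and WT 2.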
